A study of Rattus norvegicus with 6 samples.

Results

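The genes described here had a strong signal in the choroid plexus around birth and a signal near the background in the adult. They were selected on the array values themselves. A probe set, the group of probes that reads a transcript, qualified when it was annotated to a single gene, reached at least 400 units on all 4 arrays of embryonic day 19 (E19) and postnatal day 2 (P2), and stayed under 100 units on both adult arrays. The lower limit is the background level that the array software defines, according to the study. The rule found 110 probe sets of 101 genes, among 14217 genes with a probe set of their own, and each gene is given by the qualifying probe set whose younger arrays had the highest mean. The 101 genes are 1.62% of the 6218 genes that reached 400 units on all E19 and P2 arrays. The mirror rule, at least 400 units in both adult pools and under 100 units on the 4 younger arrays, found 12 genes.

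The tissue was the choroid plexus of the lateral ventricles of Sprague-Dawley rats, dissected at E19, at P2 and in adulthood, with no treatment or genetic change in any group. Each of the 3 stages has 2 arrays, and each array holds RNA pooled from several animals. The methods name adult males, time-dated pregnant females and females with litters as the animals obtained, and do not give the sex of the fetuses and pups. Markers of the choroid plexus epithelium were bright in every stage, with a summed signal over 14 marker genes of 99070 and 100868 units at E19, 112852 and 109680 units at P2, and 151637 and 147092 units in the adult, although 2 of them, Kcnj13 and Car12, stayed under 100 units on all arrays.

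The choroid plexus is a sheet of ciliated epithelial cells over a core of fibroblasts, fenestrated capillaries, pericytes and macrophages, and it secretes the cerebrospinal fluid. Around birth the tissue still grows: its vessels extend, basement membranes are laid down under the epithelium and around the capillaries, and maturing epithelial cells build the many basal bodies from which their motile cilia arise. In whole tissue, fewer cells of a type and less RNA per cell cannot be told apart, and an array of whole tissue does not assign a transcript to a cell. Probes differ in how they hybridize, so signals of different probe sets do not give relative amounts of transcript. Sums over a list are compared between arrays only, and bright probe sets weigh most in them. A brighter or dimmer probe set of a gene refers to its signal alone.

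Over the 101 genes, the mean of the 4 younger arrays had a median of 691 units and ran from 434.6 to 3821 units, with 23 genes at 1000 units or more. The adult mean had a median of 54.0 units and ran from 2.14 to 93.9 units. Against 100 units, the E19 means were at least 4.19-fold to at least 38.3-fold higher (median 7.25) and the P2 means at least 4.12-fold to at least 38.1-fold higher (median 6.58). These differences are what the rule chose, so they are given without a test. Because the adult values lie near the background, they are bounds on the signal and do not show that a transcript was absent. Both adult pools stayed under 50 units for 30 genes, and at least 1 adult pool reached 75 units for 22.

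**Figure D1:**
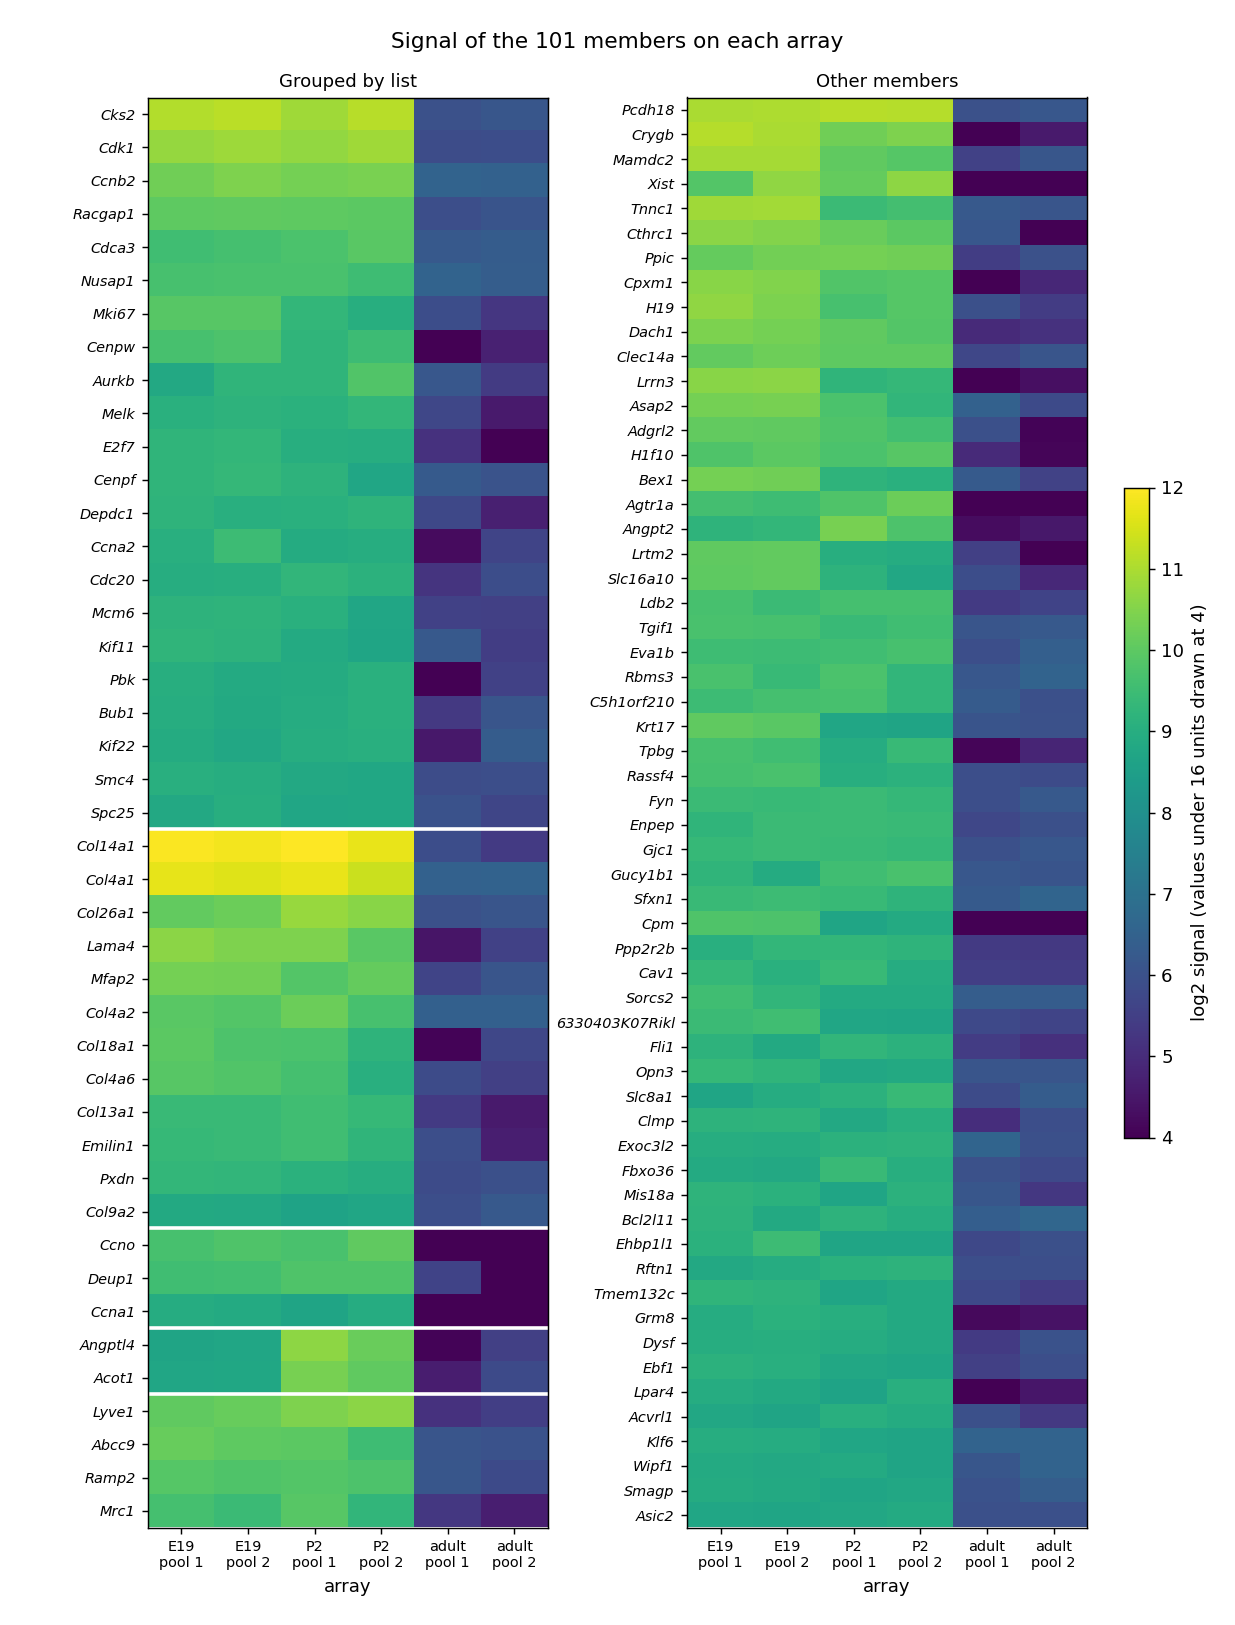
Signal of the 101 genes on each of the 6 arrays, as log2 units on a colour scale. The left panel holds, from top to bottom and parted by white lines, the cell cycle list, collagens and other matrix, basal body amplification, lipid-induced targets, and markers of endothelium, mural cells and macrophages, and the right panel holds the other genes. Every gene is at or above 400 units in the 4 younger columns and under 100 units in both adult columns, as the rule demands.

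Cell cycle genes were the list with the most members. Of 103 measured genes of cell cycle and DNA replication, 22 met the rule, and 47 reached 400 units on all younger arrays. Cdk1, the kinase that drives entry into mitosis, had signals of 1707 and 1836 units at E19, 1659 and 1865 units at P2, and 57.8 and 59.5 units in the adult. Its cyclin partner Ccnb2 had 1242 and 1413 units at E19, 1275 and 1340 units at P2, and 94.5 and 88.7 units in the adult. Cks2, a small subunit that binds cyclin-dependent kinases, had 2140 and 2299 units at E19, 1865 and 2258 units at P2, and 63.9 and 70.4 units in the adult. The younger pools of these 3 genes overlapped between E19 and P2, and each E19 mean was at least 13.3-fold above 100 units.

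The other 19 genes of this list cover most steps of division. Mcm6 belongs to the replicative helicase, E2f7 and Ccna2 act around S phase, and Smc4 condenses chromosomes. Nusap1, Kif11, Kif22 and Racgap1 act on the spindle and the cleavage furrow, Cenpf, Cenpw and Spc25 on the kinetochore, and Bub1, Aurkb and Cdc20 in the spindle checkpoint and the exit from mitosis. Racgap1 had 1039 and 1059 units at E19, 1029 and 1006 units at P2, and 60.4 and 67.6 units in the adult. Spc25, at the low end, had 454 and 516.9 units at E19, 422.6 and 438.7 units at P2, and 64.2 and 51.3 units in the adult. Over the whole list of 103 genes the summed signal was 62912 and 63804 units at E19, 59742 and 61321 units at P2, and 15517 and 15750 units in the adult, with 66 genes under 100 units in both adult pools and 6 of these under 100 units on all arrays. Among these genes Aurkb differed most between the pools of P2, with 605 and 917 units at P2, and a second probe set of Cdc20 read 125 units on average in the adult, above the limit.

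Promoters of the cell cycle genes are shown because many hold the same letters. RefSeq promoters of assembly GRCr8, 250 bases before to 50 bases after the start, were available for 80 of the 101 genes and for 18 of the 22 cell cycle genes. Each promoter was searched on both strands for CCAAT, the letters bound by the factor NF-Y, and TTTGAA, the cell cycle homology region known from genes of the G2 and M phases. Below, capitals mark these letters on either strand (CCAAT reads ATTGG, and TTTGAA reads TTCAAA, where the match is on the other strand), and each promoter is printed 5′ to 3′ along the strand of its gene. Cdk1 lies at chr20:19265043-19265342 (plus strand), Ccnb2 at chr8:79981609-79981908 (minus strand) and Cdc20 at chr5:137255750-137256049 (minus strand).
Cdk1: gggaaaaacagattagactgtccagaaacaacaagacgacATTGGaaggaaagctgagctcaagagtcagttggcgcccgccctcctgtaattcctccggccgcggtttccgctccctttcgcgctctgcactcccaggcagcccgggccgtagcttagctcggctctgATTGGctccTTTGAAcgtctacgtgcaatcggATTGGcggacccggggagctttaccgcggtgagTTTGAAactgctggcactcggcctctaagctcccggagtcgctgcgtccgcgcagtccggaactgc
Ccnb2: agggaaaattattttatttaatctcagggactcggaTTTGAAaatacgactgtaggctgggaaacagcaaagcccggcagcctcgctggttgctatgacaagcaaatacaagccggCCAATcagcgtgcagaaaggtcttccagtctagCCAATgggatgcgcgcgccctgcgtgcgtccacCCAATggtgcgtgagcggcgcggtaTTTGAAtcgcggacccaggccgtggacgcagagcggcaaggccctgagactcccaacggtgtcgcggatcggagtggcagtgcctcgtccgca
Cdc20: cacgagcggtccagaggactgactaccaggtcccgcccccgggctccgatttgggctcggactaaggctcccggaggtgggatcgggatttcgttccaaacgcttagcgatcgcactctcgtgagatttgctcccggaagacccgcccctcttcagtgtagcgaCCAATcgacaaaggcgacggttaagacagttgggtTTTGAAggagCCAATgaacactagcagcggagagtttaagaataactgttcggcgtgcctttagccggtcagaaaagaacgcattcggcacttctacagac

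Cdk1 and Ccnb2 each hold 3 CCAAT and 2 TTTGAA matches, Cdc20 holds 2 and 1, and no match overlaps another. The last TTTGAA begins 16 bases before the start in Cdk1, 43 bases before it in Ccnb2 and 51 bases before it in Cdc20. Both letters occurred together in 11 of the 18 cell cycle promoters (61.1%): Cks2, Cdk1, Ccnb2, Nusap1, Mki67, Cenpf, Depdc1, Cdc20, Kif22, Smc4 and Spc25. They occurred together in 6 of 62 promoters of the other members (9.68%), in 20 of 72 promoters of cell cycle genes outside the rule (27.8%), in 256 of 5285 promoters of genes at or above 400 units on the younger arrays (4.84%), and in 7.25% of all 27457 promoters in the table. Taken alone, CCAAT was found in 83.3% of the 18 and TTTGAA in 66.7%, against 37.7% and 18.1% of all promoters. In the 72 cell cycle promoters outside the rule the shares were 65.3% and 41.7%. Genes at or above 400 units on the younger arrays had 38.7% and 11.2%. TTTCCCGC or TTTGGCGC, letters bound by E2F factors, were in 1 of the 18, in 12 of the 72 cell cycle promoters outside the rule and in 1.53% of all promoters. These matches are a description of the letters and not of binding. The other motifs searched over all 80 members were TATAAA (11.25%, against 14.3% of all promoters), GGGCGG (63.75% against 34.9%, and 66.3% of the genes at or above 400 units) and CACGTG (3.75% against 6.65%).

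Matrix genes formed the next group. Of 41 measured collagen genes, 8 met the rule: Col14a1, Col4a1, Col26a1, Col4a2, Col18a1, Col4a6, Col13a1 and Col9a2. Col14a1, which binds along collagen fibrils, had 3927 and 3727 units at E19, 4219 and 3409 units at P2, and 58.8 and 41.2 units in the adult. A second probe set of Col14a1 also met the rule. Col26a1 had 1078 and 1191 units at E19, 1727 and 1529 units at P2, and 63.5 and 68.4 units in the adult. The transmembrane collagen Col13a1 had 693 and 681.6 units at E19, 742 and 649.8 units at P2, and 40.8 and 24.0 units in the adult. Besides Col14a1, Mfap2 and Emilin1 of elastic fibres met the rule on a list of 34 interstitial matrix genes.

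Basement membrane genes stood out among the matrix genes once the values were seen, and a list of 23 was then drawn up, of which 6 met the rule. Col4a1, whose product forms the main collagen IV network with that of Col4a2, had 3333 and 3149 units at E19, 3393 and 2640 units at P2, and 88.7 and 91.8 units in the adult. Col4a2 had 1002 and 922 units at E19, 1185 and 817 units at P2, and 88.1 and 87.7 units in the adult. Lama4, a laminin chain of vessel basement membranes, had 1550 and 1409 units at E19, 1402 and 984 units at P2, and 21.7 and 46.6 units in the adult. Col4a6, Col18a1 and Pxdn, the peroxidase that crosslinks collagen IV, were the others. Other probe sets read 113 units for Col4a1 and 183 units for Pxdn on average in the adult, above the limit. For Pxdn that probe set was also the brighter one on the younger arrays, with a mean of 1645 against 575 units.

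Other basement membrane chains kept a clear adult signal. Col4a5 had 6465 and 6492 units at E19 and 3268 and 3193 units in the adult. Lama2 had 2415 and 2314 units at E19 and 5542 and 5474 units in the adult, and Lamb2 had 2588 and 2329 units at E19 and 4182 and 4086 units in the adult. Nid1, which links laminin to collagen IV, had 4106 and 4439 units at E19, 5315 and 4760 units at P2, and 276.8 and 299.7 units in the adult. The levels of Lama2 and Lamb2 were thus higher in both adult pools, while Col4a5 and Nid1 were lower.

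Col4a1 and Col4a2 are neighbours, placed head to head on chromosome 16 in the RefSeq table with 77 bases between their starts. Their promoter windows, Col4a1 at chr16:84885347-84885646 (plus strand) and Col4a2 at chr16:84885471-84885770 (minus strand) in GRCr8, share 176 bases read from opposite strands, and they are shown because both genes met the rule. Capitals mark CCAAT and GGGCGG (read as ATTGG and CCGCCC on the other strand).
Col4a1: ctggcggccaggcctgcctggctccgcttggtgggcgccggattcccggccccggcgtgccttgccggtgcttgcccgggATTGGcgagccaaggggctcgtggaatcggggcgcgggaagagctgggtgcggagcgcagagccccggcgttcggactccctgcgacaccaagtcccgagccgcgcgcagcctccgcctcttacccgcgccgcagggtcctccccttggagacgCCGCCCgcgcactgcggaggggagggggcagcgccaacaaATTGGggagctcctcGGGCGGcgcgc
Col4a2: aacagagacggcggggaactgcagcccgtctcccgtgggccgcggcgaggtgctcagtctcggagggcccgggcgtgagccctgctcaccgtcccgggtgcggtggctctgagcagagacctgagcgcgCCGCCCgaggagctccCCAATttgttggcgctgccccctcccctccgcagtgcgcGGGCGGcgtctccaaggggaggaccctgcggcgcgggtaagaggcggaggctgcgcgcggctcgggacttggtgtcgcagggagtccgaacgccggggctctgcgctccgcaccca

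Besides this pair, 10 members had another member within 1 Mb, for instance Lama4 and Fyn on chromosome 20, and Bcl2l11 and Bub1 on chromosome 3. How many such neighbours a set of this size would have among all genes was not measured, so the count does not show clustering. Members were spread over 20 chromosomes, and 6 of the 399 measured genes of chromosome 20 were members, against 0.710% of all genes.

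Endothelial markers had a much lower summed signal in the adult, yet few of them crossed both limits. Only Ramp2, a receptor partner of the calcitonin receptor-like receptor, met the rule among 19 endothelial markers, and it had 957 and 887 units at E19, 936 and 874 units at P2, and 70.6 and 55.1 units in the adult. The summed signal of the 19 markers was 16959 and 15975 units at E19, 17214 and 16360 units at P2, and 2779 and 2739 units in the adult. Of the defining markers, Pecam1 had 350.0 and 343.8 units at E19 and 80.5 and 54.0 units in the adult, Tek had 1206 and 1061 units at E19 and 177 and 177 units in the adult, and Kdr kept 1050 and 1034 units in the adult. Of the 19 markers, 9 were under 100 units in both adult pools, and 1, Flt4, was under 100 units on all arrays.

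Several members outside the list are known from endothelium. Clec14a, an endothelial lectin, had 1073 and 1202 units at E19, 1037 and 1036 units at P2, and 51.9 and 68.7 units in the adult. Angpt2, a ligand of Tek made by growing vessels, had 588 and 625 units at E19, 1316 and 872 units at P2, and 19.1 and 22.9 units in the adult. Fli1, a transcription factor of endothelial and blood cells, Acvrl1, a receptor of the BMP family, Cav1, the coat protein of caveolae, and Lama4 belong here as well. Cav1 has another probe set that read 136 units on average in the adult. These clauses are background, and the share of any cell in the signal of these genes was not tested.

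Markers of pericytes and smooth muscle also had a lower summed signal in the adult. Abcc9, the sulfonylurea receptor subunit of pericyte potassium channels, had 1117 and 1031 units at E19, 1012 and 728 units at P2, and 69.4 and 65.1 units in the adult, and was the only member among 13 mural cell markers. Rgs5, a pericyte marker, had 1715 and 1688 units at E19, 1494 and 1830 units at P2, and 127 and 115 units in the adult, just outside the limit. The 13 markers summed to 5216 and 4818 units at E19, 5323 and 4968 units at P2, and 1176 and 1201 units in the adult. Members with known roles in vessel tone were Agtr1a, the angiotensin II receptor, Enpep, which cleaves angiotensin II, and Gucy1b1, a subunit of the nitric oxide receptor. Agtr1a had 781 and 733 units at E19, 888 and 1179 units at P2, and 11.8 and 7.02 units in the adult.

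**Figure D2:**
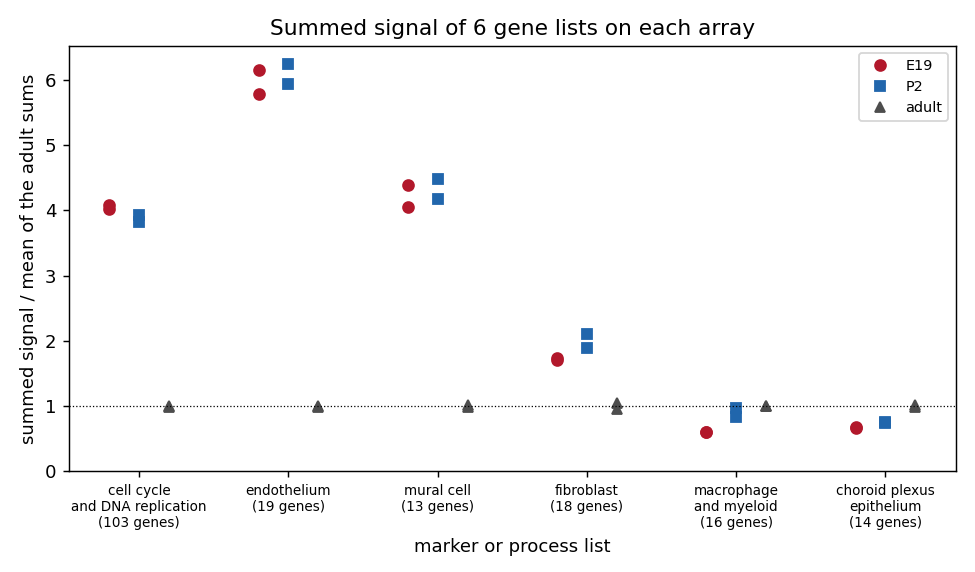
Summed signal of 6 gene lists on each array, divided by the mean of the 2 adult sums of the same list (vertical axis), with E19 as circles, P2 as squares and the adult as triangles. The endothelial, mural and cell cycle sums of the younger arrays lie far above the adult ones, the fibroblast sums less so, and the macrophage and epithelium sums lie at or below them.

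Of 16 macrophage and myeloid markers, 2 met the rule. Lyve1, a hyaluronan receptor, and Mrc1, the mannose receptor, are markers of macrophages at borders of the brain, and Lyve1 is also known from lymphatic endothelium. Lyve1 had 1055 and 1119 units at E19, 1402 and 1556 units at P2, and 35.5 and 44.5 units in the adult. Mrc1 had 794 and 698 units at E19, 964 and 614 units at P2, and 39.7 and 25.7 units in the adult. Of the other 14 markers, 5 were under 100 units in both adult pools: Itgam and Cx3cr1 on all arrays, and Cd163, Cd68 and Ptprc also at E19, with 100 units or more in at least 1 P2 pool. The other 9 reached 100 units in both adult pools, among them Csf1r, Fcer1g and Lyz2. Csf1r had 271 and 262 units at E19, 351 and 283 units at P2, and 288 and 287 units in the adult, and Fcer1g had 401 and 411 units at E19, 831 and 754 units at P2, and 670 and 657 units in the adult. The lysozyme gene Lyz2 had 956 and 952 units at E19 and 6048 and 6018 units in the adult. Over the 16 markers the sum was 5180 and 5190 units at E19, 8450 and 7206 units at P2, and 8642 and 8654 units in the adult.

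No member came from the lists of 14 epithelial, 18 fibroblast, 12 leptomeningeal, 8 neutrophil, 14 erythroid, 18 neuronal, 12 neural progenitor, 10 glial, 8 cartilage and bone, or 9 skeletal muscle markers. The fibroblast markers still had a higher sum around birth, 29981 and 29395 units at E19 and 36310 and 32576 units at P2, than in the adult, at 16550 and 17956 units. Neuronal markers summed to 791 and 907 units at E19, 1251 and 1356 units at P2, and 1031 and 853 units in the adult, with 12 of 18 under 100 units on all arrays, and 3 of the 6 tested were higher at P2 than at E19. Glial markers summed to 467 and 506 units at E19, 1380 and 824 units at P2, and 4143 and 2193 units in the adult. Of 9 skeletal muscle markers, 8 were under 100 units on all arrays. Tnnc1, a troponin C of heart and slow muscle, was a member all the same.

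Among the other process lists, 3 of 341 solute carriers and Abc transporters met the rule (Abcc9, the amino acid and thyroid hormone carrier Slc16a10 and the sodium-calcium exchanger Slc8a1), 1 of 38 developmental transcription factors (Ebf1), 1 of 37 cadherins and protocadherins (Pcdh18) and 1 of 16 imprinted growth genes (H19). No member was on the lists of 27 axon guidance genes, 22 genes of the Wnt pathway or 24 of the BMP and TGF-beta pathway. Nor was any on those of 14 genes of the insulin-like growth factor axis, 163 ion channel subunits and neurotransmitter receptors, or 10 oncofetal RNA-binding and chromatin genes. These lists do not cover their classes in full. The receptor Grm8, the channel Asic2 and Acvrl1, a receptor of the BMP family, are members but are on none of them. Slc8a1 had 420.1 and 499.5 units at E19, 558 and 674 units at P2, and 57.1 and 80.8 units in the adult.

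Of the members, 3 belong to the machinery that multiplies basal bodies in multiciliated cells, a list of 16 genes drawn up after the values were seen. Ccno, a cyclin needed for that step, had 818 and 886 units at E19, 831 and 1065 units at P2, and 7.87 and 14.5 units in the adult. Deup1, a scaffold of the deuterosome on which new centrioles form, had 749 and 769 units at E19, 898 and 881 units at P2, and 48.4 and 14.8 units in the adult. The cyclin Ccna1 had 496 and 472 units at E19, 411 and 500.2 units at P2, and 3.10 and 2.22 units in the adult. None of the 3 passed the test of E19 against P2.

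The other genes of that list ranged from an adult signal near the background to one close to that at E19. Myb, a transcription factor that opens the programme, had 967 and 1107 units at E19, 1142 and 1166 units at P2, and 103 and 85.3 units in the adult, which put it just outside the rule. Plk4, the kinase that starts a centriole, had 1045 and 1081 units at E19 and 164 and 143 units in the adult, and Gmnc, which commits cells to the fate, had 1784 and 1611 units at E19 and 473 and 438 units in the adult. Stil, a centriole assembly gene, was the only other gene of the list under 100 units in both adult pools, at 74.7 and 79.3 units, with 383 and 311 units at E19. Foxj1, which drives the genes of motile cilia, had 6180 and 6569 units at E19, 5729 and 5578 units at P2, and 4798 and 4984 units in the adult.

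**Figure D3:**
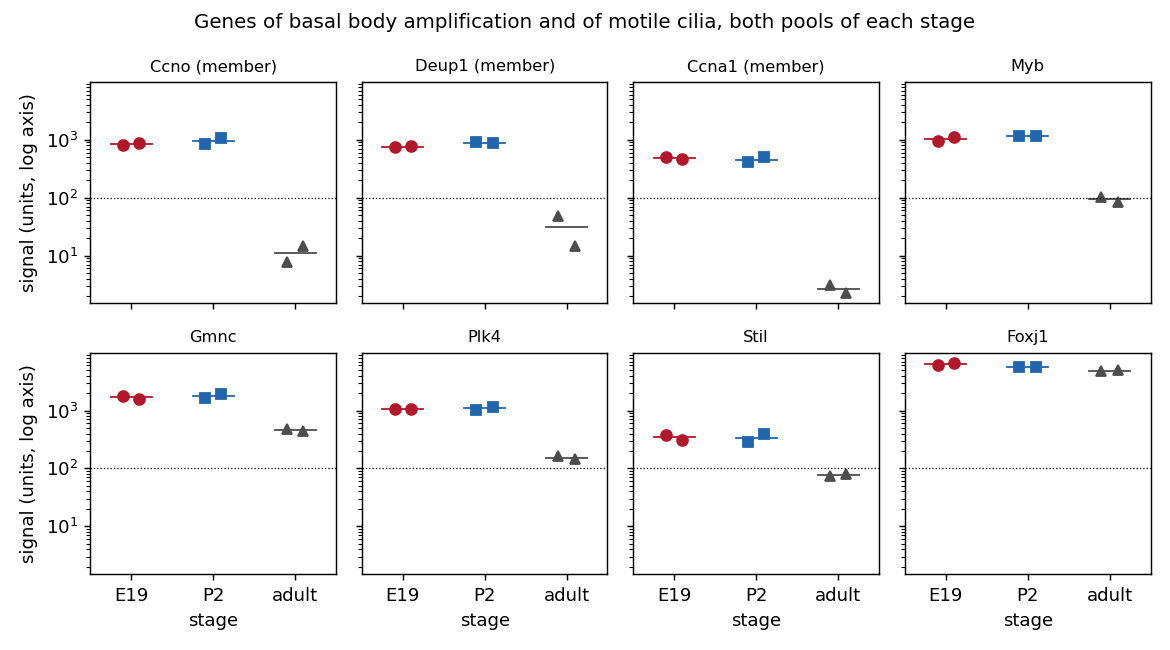
Signal of 8 genes of basal body amplification and motile cilia in both pools of each stage, on a log axis in units, with the stage mean as a bar and the background of 100 units as a dotted line. The adult signals of Ccno, Deup1 and Ccna1 lie under the line, those of Myb close to it, and Foxj1 stays near its E19 level.

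Xist, the RNA that silences an X chromosome in female cells, was a member for which the pools of a stage differed. It had 926 and 1623 units at E19, 1097 and 1608 units at P2, and 3.35 and 0.934 units in the adult. The Y-linked gene Eif2s3y had 1070 and 542 units at E19, 1152 and 481 units at P2, and 2077 and 2325 units in the adult. Of the other Y-linked genes measured, Sry was under 100 units on all arrays, and Uty, which has a related X-linked copy, had 1744 and 1833 units at E19, 1470 and 1395 units at P2, and 986 and 1104 units in the adult. In both younger stages pool 2 was higher for Xist and lower for Eif2s3y, and in both adult pools Xist was near 0 and Eif2s3y at its highest. The sex of the animals and their age cannot be told apart for Xist, since the adult animals named in the methods, other than dams, were males. Between the pools of a stage Xist differed 1.75-fold at E19, the only member beyond 1.5-fold there.

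**Figure D4:**
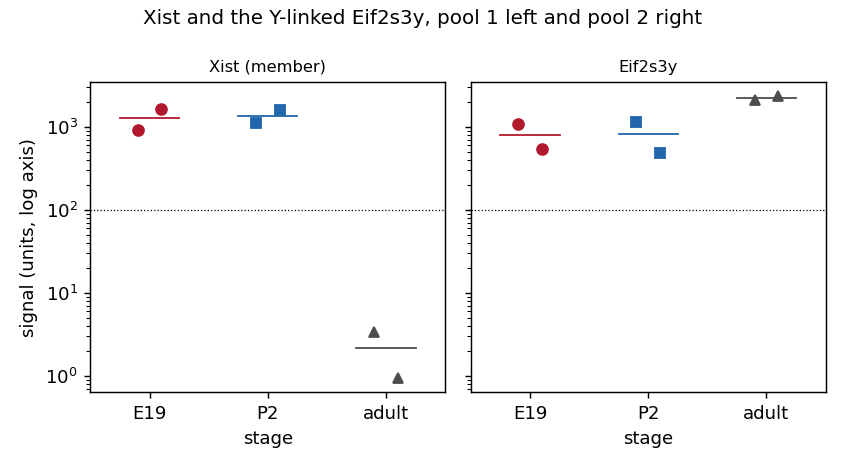
Signal of Xist and of the Y-linked Eif2s3y on each array, on a log axis in units, with pool 1 on the left and pool 2 on the right within a stage and the stage mean as a bar. The order of the 2 pools is opposite for the 2 genes at E19 and at P2, and the adult pools have almost no Xist signal and the highest Eif2s3y signal.

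E19 against P2 is the one contrast the rule did not use, and it was tested with limma on the log2 signal of the 4 younger arrays. All 101 members were tested. At an adjusted p under 0.05, 14 members (13.9%) were higher at E19 and 2 (1.98%) were higher at P2, while 85 passed in neither direction. Among all 17182 tested probe sets, 4.25% were higher at E19 and 4.11% higher at P2, and among the 7271 single-gene probe sets at or above 400 units on all 4 arrays the shares were 2.31% and 2.81%. The share of calls towards E19 was larger in the members than in either background, and their 2 calls towards P2 are too few to set against it. The members were chosen for a low adult signal and neither background was, so the shares are not like for like and no conclusion is drawn. The rule also keeps a member at 400 units or more in both stages, which limits how far it could differ in either direction. The median log2 difference, E19 minus P2, was 0.09 over the members and 0.00498 over all tested probe sets, and 82 members (81.2%) lay within 1.5-fold between the stages, against 94.9% of the bright single-gene probe sets.

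The 14 genes higher at E19 are a mixed group. Tnnc1 had 1845 and 1891 units at E19 and 703 and 788 units at P2, a log2 difference of 1.33 ± 0.10 (SE, limma adjusted p = 0.0181). Lrrn3, a leucine-rich repeat protein of the cell surface, had 1527 and 1566 units at E19 and 606 and 644 units at P2, a difference of 1.31 ± 0.09 (limma adjusted p = 0.0174). Krt17, an epithelial keratin, had 1056 and 983 units at E19 and 428 and 409 units at P2, a difference of 1.28 ± 0.09 (limma adjusted p = 0.0175). Bex1, Lrtm2 and Slc16a10 were also higher at E19 by more than 1 on the log2 scale. Slc16a10, which carries aromatic amino acids and thyroid hormone, had 1031 and 1078 units at E19 and 573 and 447 units at P2. In these 6 genes every E19 pool was above every P2 pool, which their choice by the test and by size all but fixed. The same held for members that were not called, among them Cthrc1 and Dach1, so it adds nothing to the calls.

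The other 8 genes higher at E19 were Cpm, a membrane carboxypeptidase, Mamdc2, 6330403K07Rikl, H19, Mki67, Crygb, Cpxm1 and Rassf4, with log2 differences of 0.61 to 0.99. A second probe set of Cpm read 124 units at E19 and 110 units at P2. The brightest probe set of Rassf4 read 2885 and 2244 units. With the geometric mean of all probe sets of a gene, Cpm, Rassf4, H19 and Mki67 were not called (limma adjusted p 0.0503 to 0.072). Their log2 differences were then 0.58, 0.47, 0.78 and 0.76. H19, an imprinted RNA of fetal tissues, had 1638 and 1379 units at E19, 816 and 941 units at P2, and 62.6 and 42.7 units in the adult. Grb10, an imprinted brake on growth factor signalling that was no member, had 4232 and 3892 units at E19, 2172 and 2052 units at P2, and 196 and 94.4 units in the adult. Igf2, the imprinted neighbour of H19, had 13696 and 12819 units at E19 and 17207 and 16266 units in the adult, so the pair did not run in parallel. Mki67, the proliferation antigen, was the single cell cycle member called, with 960.1 and 979.6 units at E19 and 632 and 520 units at P2 (log2 difference 0.76 ± 0.13, limma adjusted p = 0.0407). The other 21 cell cycle members ran from -0.51 to 0.39 on the log2 scale, and none of them passed the test. Crygb is a lens crystallin whose gene has close paralogs, so its probe set may read more than 1 gene.

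Angptl4 and Acot1 were the 2 genes higher at P2. Angptl4, a secreted inhibitor of lipoprotein lipase, had 407 and 430 units at E19, 1592 and 1151 units at P2, and 16.9 and 46.0 units in the adult, a log2 difference of -1.69 ± 0.18 between E19 and P2 (limma adjusted p = 0.0241). Acot1, an enzyme that splits acyl-CoA, had 425 and 436 units at E19, 1314 and 1067 units at P2, and 24.9 and 55.1 units in the adult, a difference of -1.46 ± 0.13 (limma adjusted p = 0.0212). Acot1 and Acot2 are close paralogs, and the probe set of Acot2 had 740.3 and 738.5 units at E19, 1111 and 993 units at P2, and 523 and 580 units in the adult.

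Both are known to be induced through the PPAR fatty acid receptors, and a list of 27 such targets was drawn up after seeing this. Of the 18 tested, 4 were higher at P2, 1 was higher at E19 and 13 were not called, beside 4.11% and 4.25% of all tested probe sets. Angptl4 and Acot1, which prompted the list, are 2 of the 4, and Acaa2 and Txnip are the others, so the count is no independent evidence of a direction. Acaa2, a thiolase of mitochondrial fatty acid breakdown, had 1506 and 1628 units at E19, 4803 and 4372 units at P2, and 1788 and 1673 units in the adult (log2 difference -1.55 ± 0.10, limma adjusted p = 0.0165). Pdk4, another well known target, had 391 and 509 units at E19 and 1296 and 748 units at P2, and was not called (log2 difference -1.14 ± 0.30, limma adjusted p = 0.0889). Ehhadh went the other way, with 124 and 111 units at E19 and 67.1 and 62.2 units at P2.

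**Figure D5:**
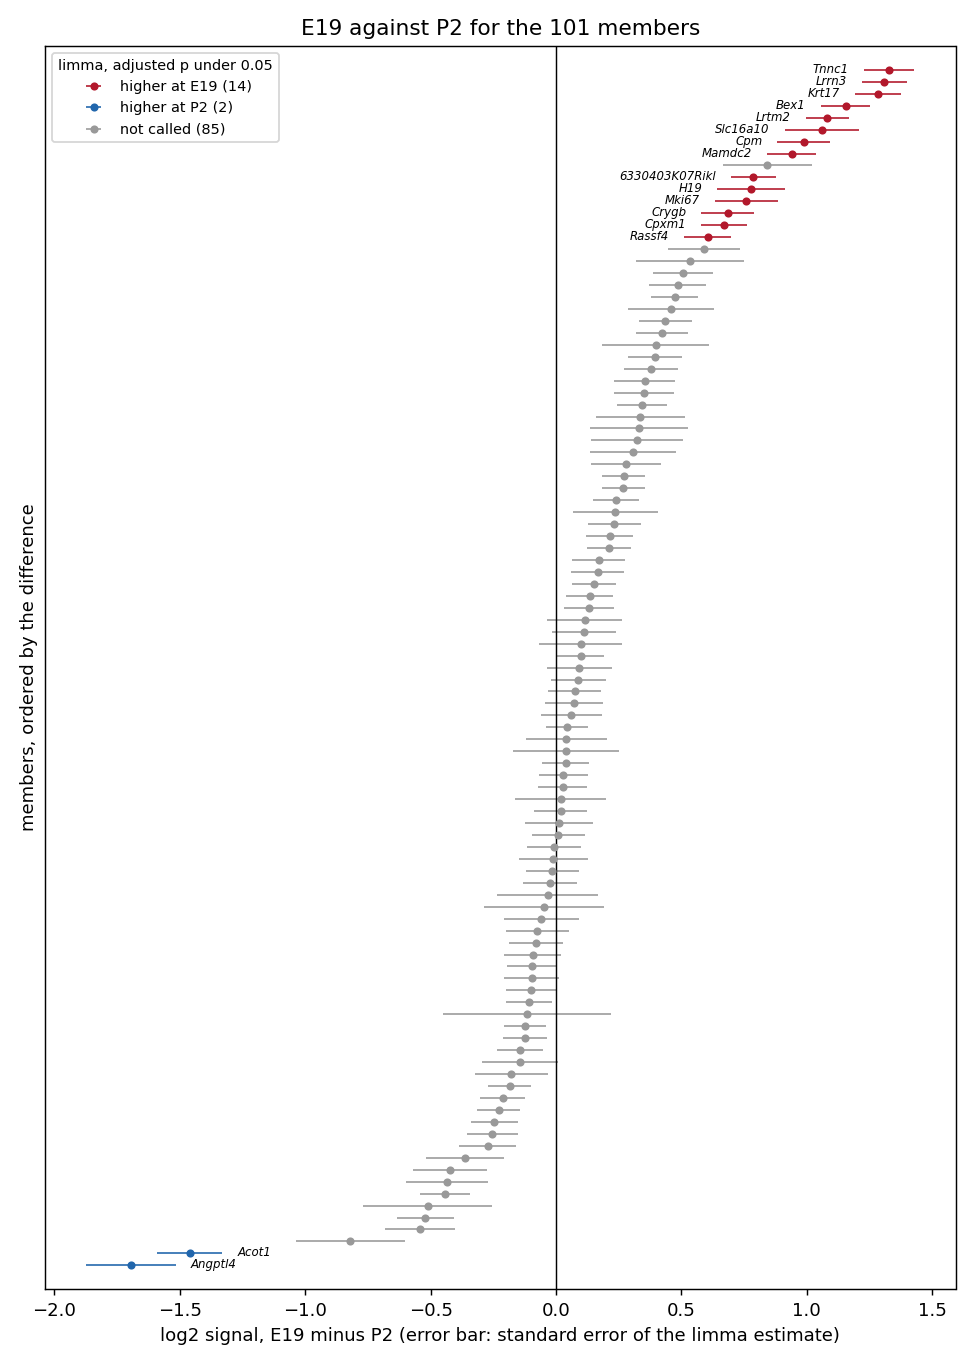
Difference between E19 and P2 for the 101 genes, as log2 signal at E19 minus P2 (horizontal axis) with the standard error of the limma estimate as a bar, ordered by size. Red marks the 14 genes higher at E19, blue the 2 genes higher at P2 and grey the 85 that passed in neither direction.

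With 2 pools per stage the calls were fragile: no member, and no other probe set, passed the test without E19 pool 1, without E19 pool 2 or without P2 pool 2, while 6 members stayed higher at E19 and 2 higher at P2 without P2 pool 1. P2 pool 1 was also higher than P2 pool 2 for all 6 basement membrane members (median log2 difference between the pools 0.52), as E19 pool 1 was in its stage (0.11), and for 7 of the 8 collagens at P2 (0.33), whereas the cell cycle members had a median of -0.05 at P2. Of the 7271 single-gene probe sets at or above 400 units, 46.7% were higher in P2 pool 1 and 49.1% in E19 pool 1. Over all 101 members the shares were 57.4% and 53.5%. Beyond 1.5-fold between the P2 pools were Mrc1 (1.57-fold), Aurkb (1.52-fold), Angpt2 (1.51-fold) and Col4a6 (1.51-fold).

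The remaining members cover many functions. Pcdh18, a protocadherin of the cell surface, had 2038 and 2062 units at E19, 2244 and 2218 units at P2, and 63.9 and 72.1 units in the adult. Mamdc2 had 1941 and 1938 units at E19, 1069 and 958 units at P2, and 46.7 and 70.5 units in the adult. Ppic, a prolyl isomerase of the secretory pathway, and Cthrc1, a secreted protein with a collagen-like stretch, were at 1182 ± 94.4 and 1516 ± 85.2 units at E19 (SD, n = 2 pools). Transcription factors among the members included, besides E2f7, Dach1, Tgif1, Klf6, Fli1 and Ebf1, of which Dach1 was at 1328 ± 42.7 units at E19 and 33.2 ± 2.8 units in the adult. Receptors and channels included Grm8, Asic2, Lpar4, Opn3, Adgrl2 and Sorcs2, and Bcl2l11 is a trigger of apoptosis. Of the 101 genes, 53 were on none of the lists.

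The limits of the rule fell in dense parts of the data. Just inside 400 units were Col9a2 (lowest younger value 401 units), Lpar4 (403 units) and Acvrl1 (405 units), and just outside were Peg12 (398 units), Itga8 (394 units) and Rhobtb1 (387 units). Just inside 100 units were Bcl2l11 (highest adult value 99.8 units), Sfxn1 (96.1 units) and Exoc3l2 (95.8 units), and just outside were Kitlg (100.2 units), Tubb2b (101.4 units) and Myb (102.6 units). Other single-gene probe sets exist for 39 of the members, 55 in all. Of these, 52 had a higher mean in the younger arrays than in the adult, 9 met the rule, and 8, of 7 genes, read 100 units or more in both adult pools. These 7 genes were Rassf4, Wipf1, Pxdn, Tmem132c, Cav1, Cdc20 and Col4a1, and for Rassf4 the other probe sets read 248 and 211 units on average in the adult. For all but Col4a1, the probe set with adult signal was also the brighter one on the younger arrays. Its younger mean was 2565 against 681 units for Rassf4 and 1668 against 588 units for Cav1. All but Col4a1 are thus members only through a dimmer probe set, and their brighter one had adult signal above the limit.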

How the data were processed

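RNA of 6 pools of rat lateral ventricle choroid plexus, 2 each at E19, P2 and adulthood, was hybridized to Affymetrix rat genome arrays. The deposited values are signal intensity on a linear scale, made by the authors in Affymetrix Expression Console by MAS5 (versions not given in the sources used here), with each array scaled to a trimmed mean of 500. Low MAS5 values are uncertain, so adult values near the background serve as bounds. There were 31099 probe sets, including 57 controls, and 20832 were annotated to a single gene.

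Groups came from the labels. The members and the gene lists were chosen with earlier results of these data known, and the lists for basement membrane, basal bodies, PPAR targets and Y-linked genes after the values were seen. A list gene outside the members is given by its brightest single-gene probe set. Named genes were those with the highest younger mean, those on a list, those called, those nearest a limit, and others where a role is known.

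E19 and P2 were compared with limma 3.58.1 in R 4.3.3 on log2 intensity of the 4 arrays, keeping probe sets whose mean reached 100 units in either stage, with Benjamini-Hochberg adjustment over 17182 probe sets and a threshold of 0.05. The adult arrays were left out because near-background values would inflate the spread of these very genes. The procedure was run on simulated data with normal noise and known fold changes, to check that its median estimates returned them. That check does not measure how reliable the calls in the real data are. Alternatives changed the limits, filter, scaling, arrays, spread estimate and probe set choice. The number of pools limits the precision, and p-values measure the spread between pools.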

Additional observations from a re-analysis of the deposited data

How the results depend on the processing

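The number of genes that met the rule was 163 with a younger limit of 300 units, 59 with 500 units and 173 with an adult limit of 150 units. It was 76 with the arrays scaled to a common median, 82 with quantile normalization and 81 with an adult limit of 75 units. The other probe set choices gave 93 and 96. Leaving out each array in turn gave 103 to 126, but this can only loosen the rule, so it does not show that the set is stable. Members higher at E19 numbered 14, and 6 with all 6 arrays in the fit, 0 with no filter on low values, 22 with a trend in the prior variance, 22 at an adjusted p under 0.1, and 0 to 6 when each replicate was left out. Members higher at P2 numbered 2, and 0 with all 6 arrays, 0 with no filter, 4 with a filter at 200 units, 6 with the trend, 6 at an adjusted p under 0.1, and 0 to 2 when each replicate was left out. Where limma called no member, 21 to 31 of them still had an unadjusted p under 0.05. The geometric mean of all probe sets of a gene gave 12 members higher at E19 and 3 higher at P2. With the replicate number as a block (replicate block), 5 members were higher at E19 and 2 at P2. The numbers did not pair the samples: the correlations of same-numbered pools were -0.05 for E19 and P2, -0.04 for E19 and the adult and -0.02 for P2 and the adult. No called member changed direction in 12 alternatives, but most of these could not reverse one. Changing the filter, the spread estimate, the block or the adult arrays leaves the difference itself as it was. Dropping a pool cannot reverse a difference between pools that do not overlap, as held for every called member. The unchanged directions therefore do not show that the calls are stable. The median log2 difference of the members stayed between 0.07 and 0.15.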
